A study of Mus musculus with 12 samples.

Results

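The HOX genes of 3T3 cells, a mouse fibroblast line, were examined in 4 groups of 3 bulk RNA-seq libraries. Members were the rows of the deposited count table whose symbol is Hoxa, Hoxb, Hoxc or Hoxd followed by a number, which gave 39 of 32544 rows, 11 in the Hoxa cluster, 10 in Hoxb, 9 in Hoxc and 9 in Hoxd. The groups were 3T3 cells left untreated and 3T3 cells kept for 24 h with extracellular vesicles (EVs), the membrane-bound particles that cells release. The donors were MDA-MB-468 cells, which stem from a human breast tumour, as a control (shCon), with less CRIPTO through knockdown (shCr) or with CRIPTO overexpressed (CrOE). CRIPTO sits on the cell surface and acts as a co-receptor for TGF-beta family ligands.

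All groups shared the recipient line, the column-based RNA isolation with DNase digestion and the directional poly(A) library kit. No group with vehicle or other particles was compared here, and the labels give neither the EV dose nor whether the donor lines were single clones. The 3 libraries assigned to CrOE carry column names with the protein's name alone and were matched by elimination, so every statement on that group rests on this match. The labels do not say whether replicates were separate cultures, so the p-values measure the spread between these libraries, which may be technical. How human reads carried by the EVs were treated is not given in the sources used here.

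HOX genes encode homeodomain transcription factors and lie in clusters on separate chromosomes. Within a cluster, the order of the genes follows the order in which they are switched on along the body axis, so that low paralog numbers mark anterior and high numbers posterior tissue. Fibroblasts keep a HOX combination that reflects the body site they came from, also in culture, which is why the combination is used as a positional address of a cell stock.

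Totals ran from 25960054 to 37774020 estimated counts per library, and 14279 genes passed the filter on low counts, 26 of the 39 HOX genes among them. Levels below are TMM-scaled CPM, a gene's count scaled to a fixed library total. Length-scaled CPM is CPM divided by exon length and then rescaled to the same total in every library, which replaces the TMM scaling. Each fold change comes from an edgeR quasi-likelihood fit over all genes, with a call at an adjusted p under 0.05. The labelled cell type was checked on 10 fibroblast markers, whose summed level was 16109 to 17158 CPM in untreated cells, 17721 to 17888 with shCon EVs, 12809 to 14212 with shCr EVs and 4812 to 4995 with CrOE EVs. All 10 fell with CrOE EVs against untreated cells, where 37.0% of all genes fell. With shCon EVs 2 rose and 4 fell, beside 18.0% and 20.2% of all genes. With shCr EVs 2 rose and 6 fell, beside 18.4% and 18.8%. Lum, a small proteoglycan of fibroblast matrix, had 0 or 1 counts with CrOE EVs against 93 to 122 in untreated cells. Epithelial markers summed to 0.966 to 2.22 CPM in every library, and Epcam had 0 counts throughout. Immune markers summed to 48.6 to 59.3 CPM in untreated cells, 82.0 to 92.5 with shCon EVs, 129 to 193 with shCr EVs and 4.57 to 5.96 with CrOE EVs. Lyz2 made up 41.4 to 50.3, 73.4 to 84.7, 121 to 186 and 1.12 to 1.40 CPM of these, in the same order, while the leukocyte marker Ptprc had at most 7 counts. Of the 5 immune markers, 3 reached 1 CPM in every untreated, shCon and shCr library, and 2 in every CrOE library. The 3 immune markers tested all fell with CrOE EVs, with a median log2 fold change of -1.28, where 37.0% of all genes fell. With shCon and with shCr EVs 1 rose and 0 fell, where 18.0% and 18.4% of all genes rose. The part of these marker shifts in the HOX differences below was not tested. In bulk RNA, fewer cells that express a gene and less RNA of it per cell cannot be told apart.

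The 3T3 cells carried one broadly shared HOX combination in all 4 groups, made of the anterior and central Hoxa genes, anterior Hoxb genes, Hoxd3, Hoxd4, Hoxd8 and Hoxd9, and Hoxc13. A gene was taken as on in a group where each of its 3 libraries reached 1 CPM, as at the floor where each held at most 3 counts, and as low otherwise. By this rule 15 genes were on in all 4 groups, and 33 of 39 had the same state in every group. Counts of genes on were 16 in untreated cells, 16 with shCon EVs, 15 with shCr EVs and 18 with CrOE EVs. Among the shared genes were Hoxa2, Hoxa3, Hoxa4, Hoxa5, Hoxa7, Hoxb2, Hoxb3, Hoxb4, Hoxb6, Hoxc13, Hoxd3, Hoxd4, Hoxd8 and Hoxd9.

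**Figure D1:**
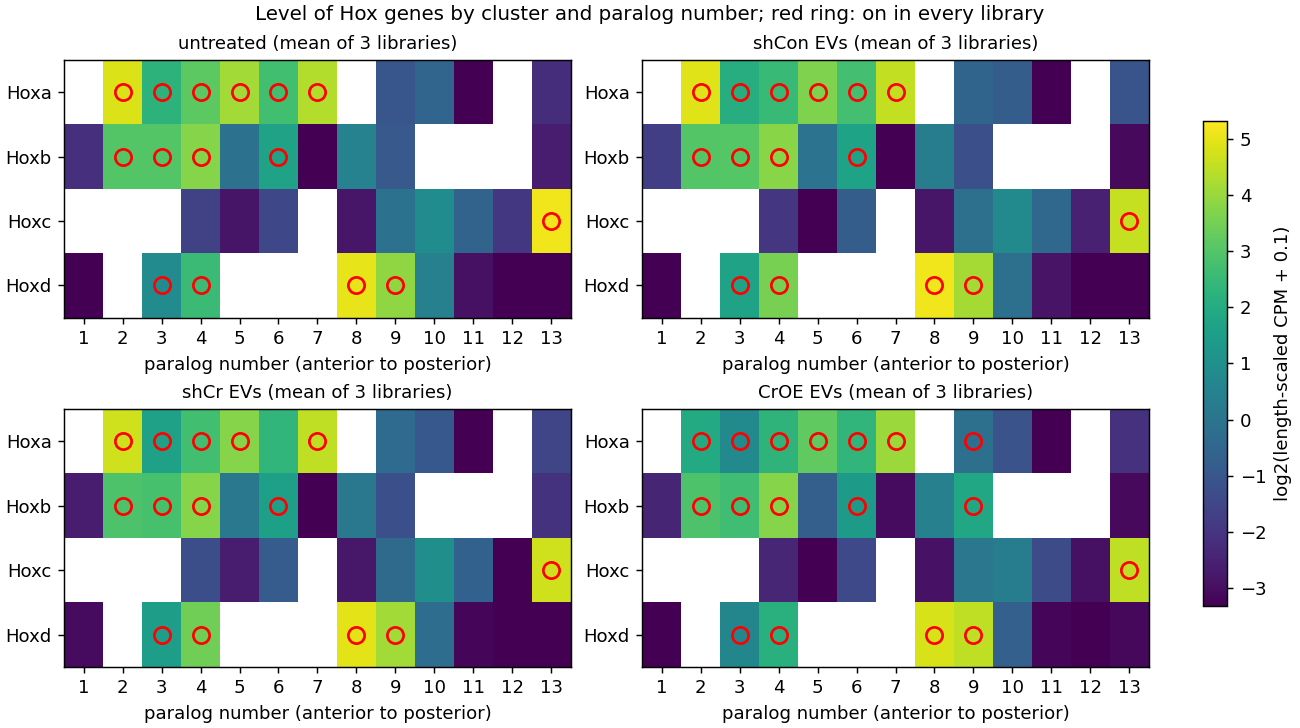
Colour gives the log2 of the mean length-scaled CPM plus 0.1 for the Hox genes shown, with clusters in rows and paralog number in columns. White squares are positions without a gene or not shown, and a red ring marks a gene at 1 CPM or more in all 3 libraries. The rings cover Hoxa2 to Hoxa7 (without Hoxa6 with shCr EVs), part of Hoxb and Hoxd, and Hoxc13 alone in its cluster, with added rings at Hoxa9 and Hoxb9 with CrOE EVs.

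In the Hoxa cluster the on state ran without a break from Hoxa2 to Hoxa7 in untreated cells, while Hoxa9, Hoxa10 and Hoxa13 were low and Hoxa11 had 0 counts in all 12 libraries. In Hoxb, Hoxb2, Hoxb3, Hoxb4 and Hoxb6 were on, Hoxb7 was at the floor between Hoxb6 and Hoxb8, Hoxb5 was below 1 CPM in every library, and Hoxb8 was low with 0.609 to 1.21 CPM. Hoxc had a single gene on, the most posterior one, Hoxc13, while Hoxc4, Hoxc6, Hoxc9, Hoxc10 and Hoxc11 stayed at or below 1.41 CPM in every library. In Hoxd the on genes came as the pairs Hoxd3 with Hoxd4 and Hoxd8 with Hoxd9, Hoxd10 was low, and Hoxd11, Hoxd12 and Hoxd13 were at the floor. The 3 genes whose state differed by the on rule were Hoxa6, Hoxa9 and Hoxb9, and the other 3 changes of state were between low and floor, in Hoxb1, Hoxb13 and Hoxc4.

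A total of 9 members were at the floor in all 4 groups, Hoxa11, Hoxb7, Hoxc5, Hoxc8, Hoxc12, Hoxd1, Hoxd11, Hoxd12 and Hoxd13, with at most 3 counts in any library. A count of 3 corresponds to 0.0795 to 0.114 CPM in these libraries, counting error only. Transcripts below that level were not detectable at this depth, so these genes are not shown to be silent. The 13 members that did not pass the filter were those 9 and Hoxa13, Hoxb1, Hoxb13 and Hoxc4, which reached at most 0.432 CPM in any library.

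Length-scaled CPM, rescaled to the same total in every library, allows genes to be set beside each other. By this measure the leading HOX transcripts of untreated cells were Hoxc13 at 35.1 ± 1.91 (SD, n = 3) length-scaled CPM, Hoxd8 at 32.2 ± 2.33, Hoxa2 at 28.8 ± 2.33 and Hoxa7 at 19.9 ± 0.517. The ranges of mean ± SD overlapped between Hoxc13 and Hoxd8 and between Hoxd8 and Hoxa2. With shCon EVs the order was Hoxd8 at 35.1 ± 1.21, Hoxa2 at 29.9 ± 0.802, Hoxc13 at 23.3 ± 1.06 and Hoxa7 at 22.8 ± 0.604. With shCr EVs Hoxd8 led at 31.1 ± 0.720, ahead of Hoxc13 at 26.1 ± 1.31 and Hoxa2 at 25.6 ± 1.09, which did not differ beyond their spread. With CrOE EVs Hoxd8 led at 27.8 ± 0.733, followed by Hoxc13 at 22.5 ± 2.46, Hoxd9 at 22.5 ± 1.48 and Hoxa7 at 16.1 ± 1.20, and Hoxa2 had left the leading genes.

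Promoter sequence is shown for 4 members that stand for the states described: Hoxd8 and Hoxd9, on in every group, Hoxd12, at the floor in the same cluster, and Hoxa2, which is on but had the deepest fall with CrOE EVs. The 250 bases before the annotated start come from RefSeq on GRCm38.p6, not from mm39, the build that the submitters' processing notes name. They are written 5′ to 3′ on the gene's strand, with CG dinucleotides in capitals, the pairs that form CpG islands. The windows are chr2:74704365-74704614 (plus strand) for Hoxd8, chr2:74697513-74697762 (plus) for Hoxd9, chr2:74674763-74675012 (plus) for Hoxd12 and chr6:52164832-52165081 (minus) for Hoxa2.
Hoxd8: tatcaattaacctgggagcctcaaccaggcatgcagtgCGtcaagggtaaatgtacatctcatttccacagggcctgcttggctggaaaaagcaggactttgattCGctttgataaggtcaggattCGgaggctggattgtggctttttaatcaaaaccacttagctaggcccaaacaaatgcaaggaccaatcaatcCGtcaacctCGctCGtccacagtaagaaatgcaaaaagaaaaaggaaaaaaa
Hoxd9: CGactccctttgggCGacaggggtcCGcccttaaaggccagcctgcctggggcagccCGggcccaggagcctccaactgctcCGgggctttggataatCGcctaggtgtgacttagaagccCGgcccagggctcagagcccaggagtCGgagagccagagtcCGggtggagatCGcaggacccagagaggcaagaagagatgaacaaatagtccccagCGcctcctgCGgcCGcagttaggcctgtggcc
Hoxd12: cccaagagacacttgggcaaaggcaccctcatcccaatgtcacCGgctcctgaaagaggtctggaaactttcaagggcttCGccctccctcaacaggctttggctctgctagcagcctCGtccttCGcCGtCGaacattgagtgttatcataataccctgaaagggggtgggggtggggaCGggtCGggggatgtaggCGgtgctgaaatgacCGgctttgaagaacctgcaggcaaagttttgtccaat
Hoxa2: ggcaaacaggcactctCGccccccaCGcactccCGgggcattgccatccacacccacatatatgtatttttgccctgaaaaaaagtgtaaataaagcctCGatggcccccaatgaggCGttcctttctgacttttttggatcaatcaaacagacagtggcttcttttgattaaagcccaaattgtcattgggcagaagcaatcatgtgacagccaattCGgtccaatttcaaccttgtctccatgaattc

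These windows held 6 CG pairs in Hoxd8, 13 in Hoxd9, 10 in Hoxd12 and 6 in Hoxa2, so the gene at the floor lay between the genes that were on. Entries were present for 22 of the 39 members, in 24 windows, with a median of 12.5 CG pairs against 6 over all 32841 promoter windows of the same length. The 11 windows of members on in at least 1 group had a median of 12 and the 13 windows of members on in no group a median of 13. The composite site of PBX and HOX proteins, TGATNNAT on either strand, was found in 4 of 24 HOX windows (16.7%) against 7.69% of all windows. Its matches were in Hoxa2, whose window reads TGATTGAT on the other strand with the farther end 111 bases before the start, and in Hoxb1, Hoxb8 and Hoxd11. The homeodomain core TAATTA was in 2 HOX windows (8.33%, all windows 4.84%), the TATA core TATAAA in 4 (16.7%, all windows 12.4%), and ATTGG, the CCAAT box read on the other strand, in 14 (58.3%, all windows 33.9%), each searched on both strands. A match is a description of the letters, not a shown binding site.

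Of the 3 kinds of EV, CrOE EVs were followed by the widest HOX changes: Hoxa2 and Hoxa3 fell, Hoxb9 and Hoxd9 rose, and most of Hoxb did not pass the test. Against untreated cells 12 of the 26 HOX genes tested were called, where 73.7% of all genes tested were called in this comparison. Of these, 4 rose and 8 fell, against 36.7% and 37.0% of all genes. A change of at least 2-fold was called in 5 HOX genes, Hoxa2, Hoxa3, Hoxa9, Hoxb9 and Hoxd10, where 29.7% of all genes had one. The HOX share called was 46.2%, below the background. Some tested members had few counts and a wide spread, such as Hoxc11 (SE 0.71) and Hoxc6 (SE 0.56), which makes a call less likely. Whether HOX genes responded less than other genes was not tested. The median log2 fold change was -0.29 over the 26 HOX genes and 0.01 over all genes, and the median size without sign was 0.56 and 0.60.

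Hoxa2, which sets hindbrain and branchial arch identity, was at 14.6, 13.99 and 15.9 CPM in untreated cells, 15.5, 15.5 and 14.95 with shCon EVs, 13.4, 13.2 and 14.1 with shCr EVs and 1.97, 2.24 and 1.83 with CrOE EVs. The 3 CrOE libraries lay far below the other 9, which ran from 13.2 to 15.9 CPM. The log2 fold change with CrOE EVs against untreated cells was -2.88 (SE 0.09, adjusted p = 1.4e-11). Some 15.0% of its exon bases also lie in Gm28308, a transcript annotated on the same strand, which stayed at or below 0.498 CPM in every library.

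Hoxb9, a gene of thoracic and mammary identity, was at 0.366, 0.381 and 0.221 CPM in untreated cells, 0.25, 0.266 and 0.216 with shCon EVs, 0.317, 0.288 and 0.159 with shCr EVs and 2.70, 2.68 and 2.56 with CrOE EVs. These were 6 to 10 estimated counts in each of the 9 other libraries and 85 to 92 in the CrOE libraries, with no overlap. The log2 fold change was 3.02 (SE 0.24, adjusted p = 1.21e-07). Hoxb9 passed the filter on low counts only through the CrOE libraries, where it was high. Its call is therefore not separate support for the difference seen in the counts. Of the preceding genes of the cluster, Hoxb8 had a log2 fold change of -0.01 (95% interval -0.53 to 0.50), which was not called, and Hoxb7 had at most 1 count in any library.

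Hoxa3, needed for thymus and parathyroid development, was at 7.87, 9.03 and 7.95 CPM in untreated cells, 6.48, 7.87 and 6.88 with shCon EVs, 4.41, 5.16 and 6.28 with shCr EVs and 3.52, 2.50 and 2.84 with CrOE EVs. Its CrOE libraries were the lowest of the 12, and its change was -1.49 (SE 0.15, adjusted p = 1.43e-06). Same-strand Gm28308 overlaps 8.01% of its exon bases, and antisense transcripts overlap others, among them Hoxaas2 (8.36%) and 5730596B20Rik (4.86%). The latter was at 1.52 to 2.12 CPM in untreated cells, 1.95 to 2.09 with shCon EVs, 1.06 to 1.88 with shCr EVs and 0.320 to 0.507 with CrOE EVs. Its change with CrOE EVs was -2.23 (SE 0.27, adjusted p = 5.99e-06). Its part in the Hoxa3 level was not tested.

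Hoxa4 and Hoxa5, genes of cervical and lung levels, fell with each kind of EV. Hoxa4 was at 3.88, 4.04 and 4.27 CPM in untreated cells, 2.61, 2.52 and 2.52 with shCon EVs, 2.93, 2.79 and 3.39 with shCr EVs and 2.41, 2.36 and 2.05 with CrOE EVs. Hoxa5 was at 10.5, 8.73 and 9.20 CPM in untreated cells, 6.73, 6.77 and 6.70 with shCon EVs, 7.23, 7.62 and 7.69 with shCr EVs and 4.57, 4.92 and 5.87 with CrOE EVs. In both genes every EV library lay below every untreated library. The changes with CrOE EVs were -0.84 (SE 0.12, adjusted p = 3.58e-05) for Hoxa4 and -0.88 (SE 0.10, adjusted p = 4.95e-06) for Hoxa5.

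Of Hoxa7 and Hoxa6, which pattern the thoracic axis, Hoxa7 fell slightly with CrOE EVs and Hoxa6 did not pass the test. Hoxa7 was at 16.8, 16.5 and 16.6 CPM in untreated cells, 19.1, 18.4 and 19.2 with shCon EVs, 20.7, 18.97 and 17.8 with shCr EVs and 12.5, 14.5 and 14.2 with CrOE EVs. It was lower in the CrOE libraries than in all others, with a log2 fold change of -0.27 (SE 0.08, adjusted p = 0.00608) against untreated cells. Hoxa6 was at 1.61, 1.68 and 1.66 CPM in untreated cells, 1.61, 2.03 and 1.33 with shCon EVs, 0.952, 1.44 and 1.51 with shCr EVs and 1.14, 1.22 and 1.54 with CrOE EVs. The shCr and CrOE libraries were all below the untreated ones, while the shCon libraries overlapped every other group. The change with CrOE EVs was -0.33 (95% interval -0.81 to 0.14), which did not pass the test. Hoxa6 was not on with shCr EVs because of replicate 1 alone, at 0.952 CPM. Without this library 17 genes were on in that group.

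Hoxa9, expressed in posterior trunk and limb mesoderm, was at 0.732, 0.8 and 0.405 CPM in untreated cells, 0.787, 1.16 and 0.865 with shCon EVs, 0.705, 1.41 and 1.38 with shCr EVs and 1.36, 1.34 and 1.35 with CrOE EVs. It rose with CrOE EVs by 1.06 (SE 0.30, adjusted p = 0.00658), though CrOE libraries did not exceed 2 of the 3 shCr libraries. Against shCon and shCr EVs the change was 0.52 (95% interval -0.10 to 1.14) and 0.20 (95% interval -0.39 to 0.79), neither called. Its on state with CrOE EVs is therefore not shown to be particular to them.

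**Figure D2:**
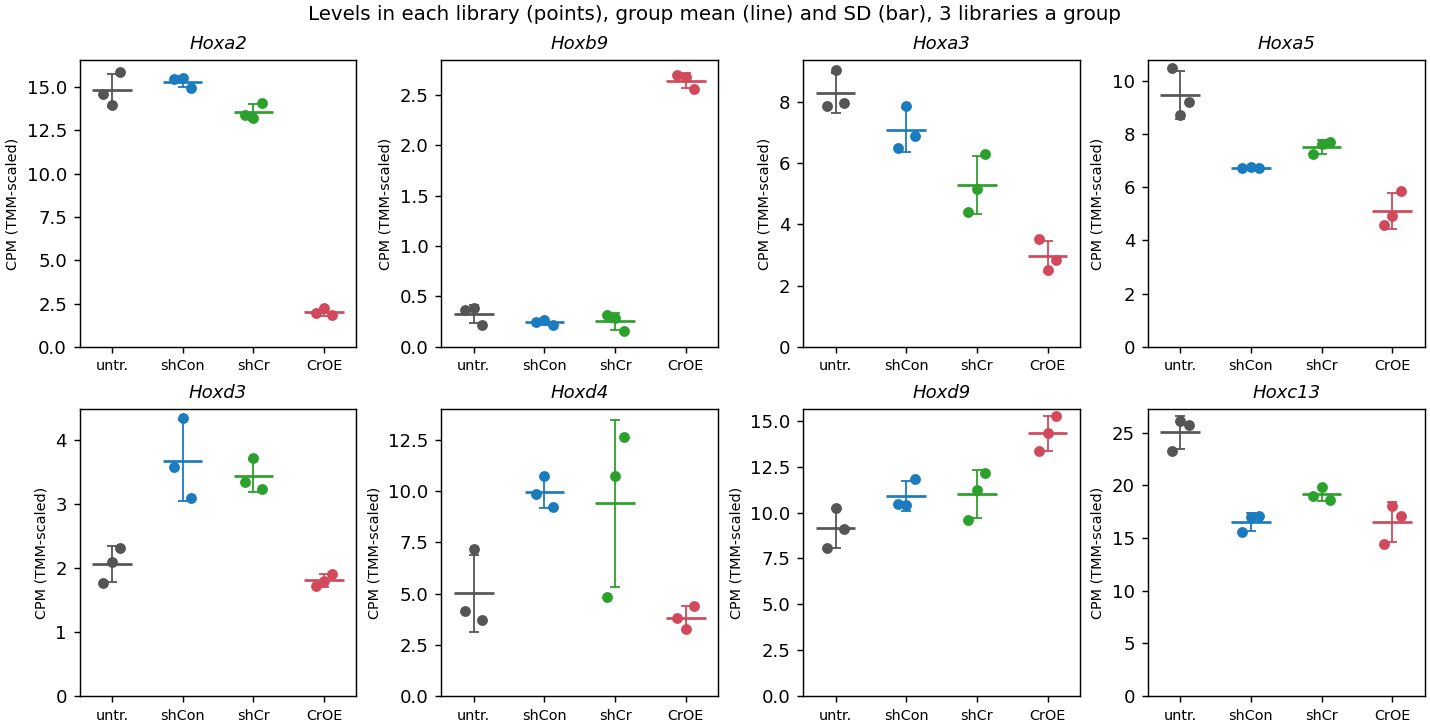
Points give the TMM-scaled CPM of each library, lines the group mean and bars the SD of 3 libraries, for 8 Hox genes in untreated cells (untr.) and after shCon, shCr or CrOE EVs, each panel from 0. The CrOE libraries stand apart in Hoxa2 (1.83 to 2.24 CPM) and Hoxb9 (2.56 to 2.70 CPM), while in Hoxd4 the shCr libraries spread from 4.83 to 12.7 CPM.

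The anterior Hoxb genes Hoxb2, Hoxb3 and Hoxb4 were not called in any comparison, though Hoxb3 came close with CrOE EVs. Hoxb2, active in the hindbrain, was at 8.16, 8.42 and 7.76 CPM in untreated cells, 7.91, 8.30 and 7.93 with shCon EVs, 7.26, 7.46 and 8.16 with shCr EVs and 7.29, 8.09 and 7.61 with CrOE EVs. Hoxb4, known for its role in blood stem cells and the cervical axis, was at 8.53, 10.4 and 10.7 CPM in untreated cells, 10.4, 9.93 and 10.5 with shCon EVs, 9.83, 10.03 and 11.1 with shCr EVs and 10.2, 11.4 and 9.24 with CrOE EVs. The groups overlapped in both. With CrOE EVs the change against untreated cells was -0.08 (95% interval -0.26 to 0.09) for Hoxb2 and 0.06 (95% interval -0.17 to 0.28) for Hoxb4.

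Hoxb3 was at 9.01, 11.4 and 9.09 CPM in untreated cells, 9.20, 10.4 and 10.1 with shCon EVs, 6.77, 8.84 and 10.7 with shCr EVs and 7.39, 8.12 and 8.34 with CrOE EVs. Its CrOE libraries were all below the untreated ones, but the change, -0.30 (95% interval -0.63 to 0.02), had an adjusted p of 0.0796. It was called in 4 of 18 alternatives, namely a replicate block, a model of the groups compared alone, and without shCr replicate 1 or 3, with an adjusted p of 0.0222 to 0.303 over all of them. The Hoxb3 difference between CrOE and shCon EVs, -0.32 (95% interval -0.64 to 0.00) with an adjusted p of 0.0679, was called in 5 of 18, the same 4 and a minimum of 10 counts in every library, over a range of 0.00338 to 0.186. Without shCr replicate 1 it was also lower with CrOE than with shCr EVs, at -0.30 with an adjusted p of 0.0358. Hoxb6 was at 1.54, 1.94 and 1.73 CPM in untreated cells, 1.43, 1.79 and 2.05 with shCon EVs, 1.48, 1.60 and 1.96 with shCr EVs and 1.27, 1.34 and 1.77 with CrOE EVs, with overlapping groups. The Hoxb6 change was -0.25 (95% interval -0.68 to 0.19). Antisense transcript Hoxb3os overlaps 52.9% of the exon bases of Hoxb3 and 27.3% of those of Hoxb2, so their levels may hold its reads if strand was not used, and use of read strand in counting is not given in the sources used here.

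Hoxc13, a gene of hair follicles, nails and the tail, was lower after each of the 3 kinds of EV. It was at 23.2, 26.1 and 25.8 CPM in untreated cells, 15.5, 16.97 and 17.1 with shCon EVs, 19, 19.9 and 18.6 with shCr EVs and 14.4, 18.1 and 17.04 with CrOE EVs. No EV library reached the lowest untreated one. The log2 fold changes were -0.60 (SE 0.09, adjusted p = 0.000144) with shCon EVs, -0.39 (SE 0.08, adjusted p = 0.00306) with shCr EVs and -0.60 (SE 0.09, adjusted p = 3.03e-05) with CrOE EVs. These 3 values share the untreated libraries.

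Hoxd9 and Hoxd8 are neighbours in the cluster and act in the posterior axis and proximal limb. Hoxd9 was at 8.09, 10.3 and 9.09 CPM in untreated cells, 10.4, 10.4 and 11.9 with shCon EVs, 9.59, 11.2 and 12.2 with shCr EVs and 13.4, 14.3 and 15.3 with CrOE EVs. Its CrOE libraries were the highest of the 12, with a change of 0.65 (SE 0.11, adjusted p = 0.000139). Hoxd8 was at 24.6, 24.97 and 27.4 CPM in untreated cells, 28.4, 27.95 and 26.9 with shCon EVs, 26.8, 24.9 and 24.7 with shCr EVs and 22.3, 23.5 and 22.3 with CrOE EVs. Its CrOE libraries were just below all untreated ones, with a change of -0.18 (SE 0.06, adjusted p = 0.0217). The Hoxd8 call was lost without untreated replicate 3, CrOE replicate 1 or CrOE replicate 3, and without the low-count filter, with an adjusted p of 0.0553 to 0.0927 in these fits.

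Hoxd10, a limb and lumbar gene, was low throughout, at 0.439, 0.686 and 0.883 CPM in untreated cells, 0.465, 0.432 and 0.396 with shCon EVs, 0.247, 0.449 and 0.53 with shCr EVs and 0.222, 0.407 and 0.225 with CrOE EVs. The CrOE libraries lay below the untreated ones by little, and the change was -1.22 (SE 0.37, adjusted p = 0.0095). Without untreated replicate 3 it was -0.97 with an adjusted p of 0.0539, not a call. This gene had 7 to 24 estimated counts per library.

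Hoxd3 and Hoxd4, an anterior pair next to each other, rose after shCon and shCr EVs and did not pass the test with CrOE EVs. Hoxd3 was at 1.76, 2.10 and 2.32 CPM in untreated cells, 3.58, 4.35 and 3.10 with shCon EVs, 3.35, 3.72 and 3.23 with shCr EVs and 1.71, 1.80 and 1.91 with CrOE EVs. The shCon and shCr libraries were all above the untreated and CrOE ones, with log2 fold changes of 0.84 (SE 0.16, adjusted p = 0.00105) and 0.74 (SE 0.16, adjusted p = 0.00238) against untreated cells. Hoxd4 was at 4.14, 7.17 and 3.72 CPM in untreated cells, 9.88, 10.7 and 9.22 with shCon EVs, 4.83, 10.7 and 12.7 with shCr EVs and 3.81, 3.26 and 4.38 with CrOE EVs. The shCon libraries were above all untreated ones, whereas shCr replicate 1, at 4.83 CPM, lay within the untreated range. The Hoxd4 changes were 0.99 (SE 0.31, adjusted p = 0.0228) with shCon EVs and 0.92 (SE 0.31, adjusted p = 0.0314) with shCr EVs. The change with CrOE EVs was -0.18 (95% interval -0.54 to 0.17) for Hoxd3 and -0.39 (95% interval -1.10 to 0.32) for Hoxd4.

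Both Hoxd4 calls were lost when certain single libraries were left out, while the direction stayed the same. The shCon call was lost without untreated replicate 1 or 3 or shCon replicate 1 or 2, with log2 fold changes of 0.81 to 1.00 and an adjusted p of 0.0536 to 0.0980. The shCr call was lost without untreated replicate 1 or 3 or shCr replicate 2 or 3, and in a model of those groups alone, with log2 fold changes of 0.65 to 0.91 and an adjusted p of 0.0923 to 0.139. Hoxd3 and Hoxd4 share 61.1% and 49.1% of their 31-base stretches with other transcripts, above all Gm28230, a same-strand transcript that spans both, so reads could be split among the 3. Gm28230 was at 2.50 to 6.82 CPM in untreated cells, 7.44 to 10.2 with shCon EVs, 1.80 to 11.8 with shCr EVs and 0.989 to 3.76 with CrOE EVs. The sum of the 3 rows was 8.53 to 16.1 CPM in untreated cells, 20.9 to 22.8 with shCon EVs, 9.98 to 27.7 with shCr EVs and 6.05 to 10.1 with CrOE EVs, so the shCon libraries stood above the untreated ones in the sum as well.

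EVs from shCon and shCr donors were followed by small HOX changes, none of 2-fold. With shCon EVs 6 of 26 HOX genes were called, 2 higher and 4 lower, where 38.1% of all genes were called, 18.0% higher and 20.2% lower. The risers were Hoxd3 and Hoxd4, and those that fell included Hoxa4, Hoxa5 and Hoxc13. With shCr EVs 8 were called, 3 higher and 5 lower, where 37.3% of all genes were called, 18.4% higher and 18.8% lower. The risers were Hoxa9, Hoxd3 and Hoxd4, and those that fell included Hoxa3, Hoxa4, Hoxa5 and Hoxc13. A called change of at least 2-fold was seen in 0 HOX genes in either comparison, where 6.04% and 6.28% of all genes had one. The HOX median log2 fold change was 0.01 with shCon EVs and -0.11 with shCr EVs, against 0.01 and 0.02 over all genes.

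Hoxa4 changed by -0.67 (SE 0.12, adjusted p = 0.00089) on the log2 scale with shCon EVs and by -0.42 (SE 0.12, adjusted p = 0.0148) with shCr EVs, and Hoxa5 by -0.49 (SE 0.10, adjusted p = 0.00233) and -0.33 (SE 0.10, adjusted p = 0.0206), in the same order. Hoxa3 changed by -0.64 (SE 0.15, adjusted p = 0.00385) with shCr EVs, and its change with shCon EVs was -0.23 (95% interval -0.54 to 0.09), not called. With shCr EVs the Hoxa4 call was lost without untreated replicate 3 or shCr replicate 2 and in a model of the groups compared alone, with an adjusted p of 0.0533 to 0.0594. The Hoxa5 call was lost without untreated replicate 1, at -0.27 with an adjusted p of 0.0790. The Hoxa9 rise, 0.86 (SE 0.31, adjusted p = 0.0431), was lost in 11 of 18 alternatives, namely a model of the groups compared alone, no low-count filter, and leaving out untreated replicate 1 or 3, shCon replicate 1 or 3, shCr replicate 2 or 3 or any CrOE replicate, with an adjusted p of 0.0501 to 0.179.

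Knockdown of CRIPTO in the donor cells made no HOX difference that passed the test. Between shCr and shCon EVs 0 of 26 HOX genes were called by edgeR, where 8.73% of all genes were called (5.22% higher, 3.51% lower and 0.756% with at least 2-fold), and DESeq2 called 0 as well. At an unadjusted p under 0.05 there were 3, Hoxa2, Hoxa3 and Hoxc13. Their log2 fold changes were -0.17 (95% interval -0.34 to -0.01), -0.42 (95% interval -0.73 to -0.10) and 0.21 (95% interval 0.03 to 0.40). The 26 changes ran from -0.42 to 0.32, with a median of -0.06 over HOX and 0.00 over all genes. Intervals were narrow for the more abundant members, as in Hoxb4 with 0.01 (95% interval -0.22 to 0.23) and Hoxa7 with 0.02 (95% interval -0.15 to 0.18), and wide for Hoxc11 with -0.15 (95% interval -1.52 to 1.23). Without shCr replicate 3 Hoxa3 passed, with an adjusted p of 0.0391 over a range of 0.0391 to 0.336 among its alternatives.

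**Figure D3:**
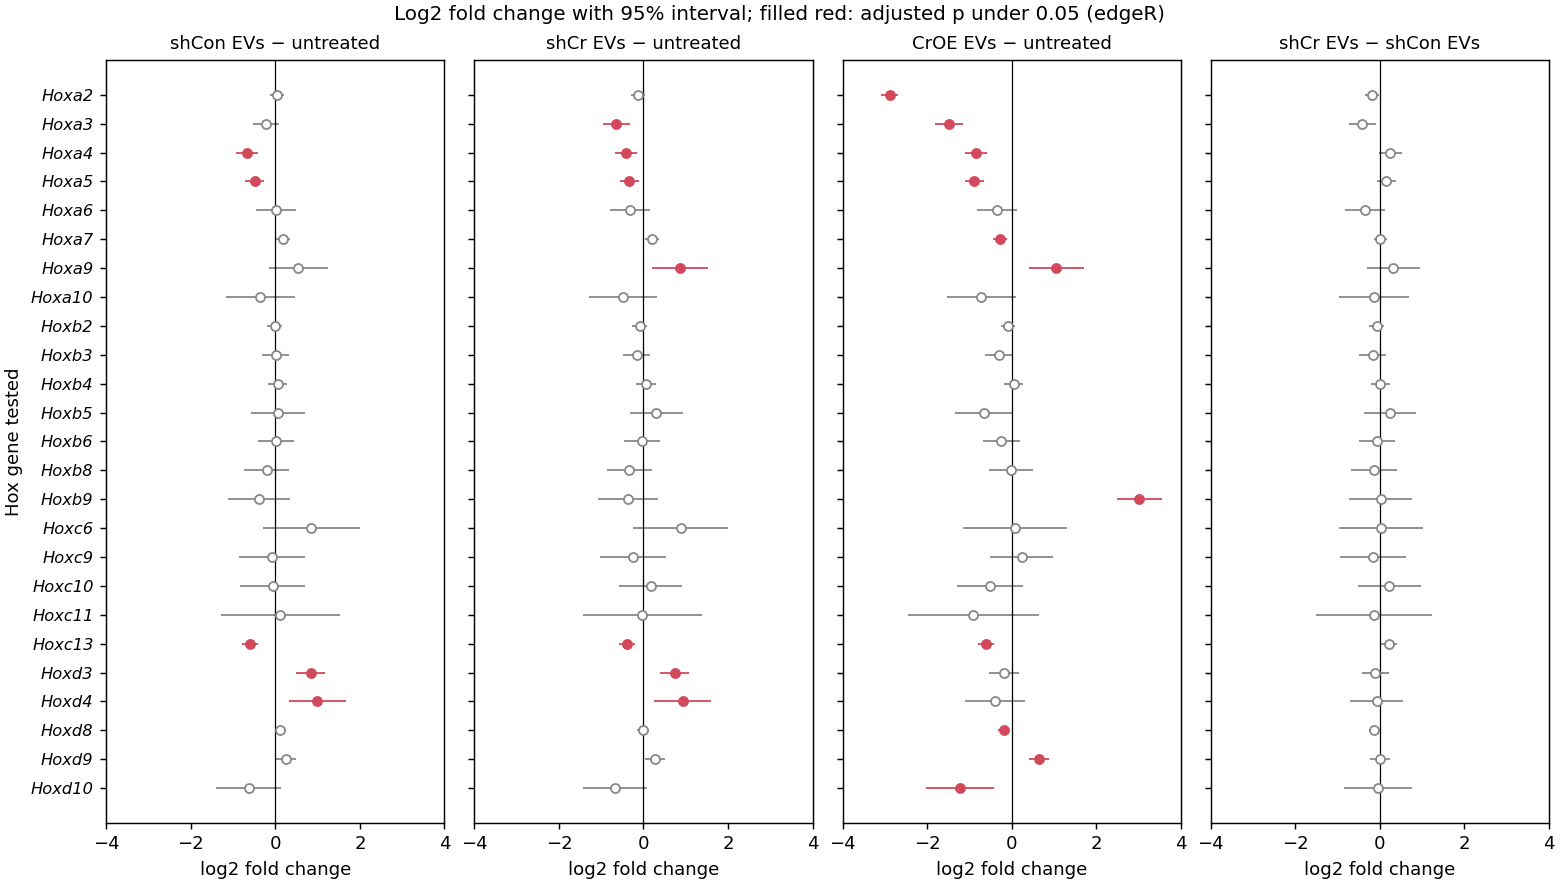
Points give the edgeR log2 fold change of the Hox genes tested and shown and bars its 95% interval, for shCon, shCr and CrOE EVs against untreated cells and for shCr against shCon EVs, with called genes filled in red. The CrOE panel holds the widest changes, from -2.88 in Hoxa2 to 3.02 in Hoxb9, and the shCr against shCon panel holds no called gene.

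Set against the other EV groups, CrOE EVs again stood apart in Hoxa2 and Hoxb9. Against shCon EVs 10 HOX genes were called, 3 higher and 7 lower, where 72.6% of all genes were called, 36.5% higher and 36.1% lower. Against shCr EVs 13 were called, 3 higher and 10 lower, where 73.9% of all genes were called, 36.9% higher and 37.0% lower. Called changes of at least 2-fold numbered 6 and 4, against 27.2% and 29.6% of all genes. Hoxb9 and Hoxd9 were among the higher genes in both comparisons. The HOX medians were -0.33 and -0.22, with 0.01 over all genes in each.

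Hoxa2 differed by -2.93 (SE 0.09, adjusted p = 1.46e-11) on the log2 scale from shCon EVs and by -2.75 (SE 0.09, adjusted p = 2.11e-11) from shCr EVs. Hoxb9, which passed the low-count filter only through the CrOE libraries, was higher by 3.41 (SE 0.25, adjusted p = 5.61e-08) and 3.39 (SE 0.24, adjusted p = 4.06e-08). Hoxd9 was higher by 0.39 (SE 0.11, adjusted p = 0.00525) and 0.38 (SE 0.11, adjusted p = 0.00626). These comparisons share the CrOE libraries with each other and with that against untreated cells.

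Hoxd3 and Hoxd4 belong to the genes that were lower with CrOE EVs than after the other EVs. Hoxd3 differed by -1.02 (SE 0.15, adjusted p = 5.49e-05) from shCon EVs and by -0.92 (SE 0.15, adjusted p = 0.000126) from shCr EVs. Hoxd4 differed by -1.38 (SE 0.31, adjusted p = 0.00137) and -1.31 (SE 0.31, adjusted p = 0.00181). Hoxa3, Hoxa5, Hoxa7 and Hoxd8 were also lower in both comparisons, and Hoxa4, Hoxb5 and Hoxc13 against shCr EVs. The Hoxb5 difference, -0.95 (SE 0.30, adjusted p = 0.0111), fell to -0.76 with an adjusted p of 0.0527 without CrOE replicate 3. For Hoxc13, -0.21 (SE 0.09, adjusted p = 0.038) against shCr EVs, the call was lost in a model of the groups compared alone, without the low-count filter, and without shCon replicate 2, shCr replicate 2, CrOE replicate 1 or CrOE replicate 3, with an adjusted p of 0.0505 to 0.185. The Hoxd8 difference from shCr EVs, -0.16 (SE 0.06, adjusted p = 0.029), was lost in a model of the groups compared alone, without the low-count filter, and without untreated replicate 1, shCr replicate 1, CrOE replicate 1 or CrOE replicate 3, with an adjusted p of 0.0524 to 0.0899.

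Length-scaled CPM was also summed over each cluster, on its own rescaled total and not on the TMM scale. Hoxa transcripts were at 93.0 to 99.7 length-scaled CPM in untreated cells, 87.8 to 91.3 with shCon EVs, 80.7 to 86.6 with shCr EVs and 53.4 to 59.9 with CrOE EVs. The CrOE libraries held the lowest Hoxa sums. Hoxb sums overlapped in all groups, at 32.4 to 37.0, 34.5 to 36.2, 29.2 to 37.0 and 34.1 to 36.7 in the same order. Hoxc sums, mostly Hoxc13, were 37.0 to 41.3 in untreated cells and 21.7 to 31.5 in the EV groups, without overlap. Hoxd sums were 51.6 to 57.9 in untreated cells, 66.9 to 69.1 with shCon EVs, 54.9 to 67.7 with shCr EVs and 54.8 to 58.4 with CrOE EVs. Over all 39 genes the sum was 227 ± 7.63 in untreated cells (SD, n = 3), 221 ± 2.27 with shCon EVs, 210 ± 13.9 with shCr EVs and 174 ± 8.70 with CrOE EVs.

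**Figure D4:**
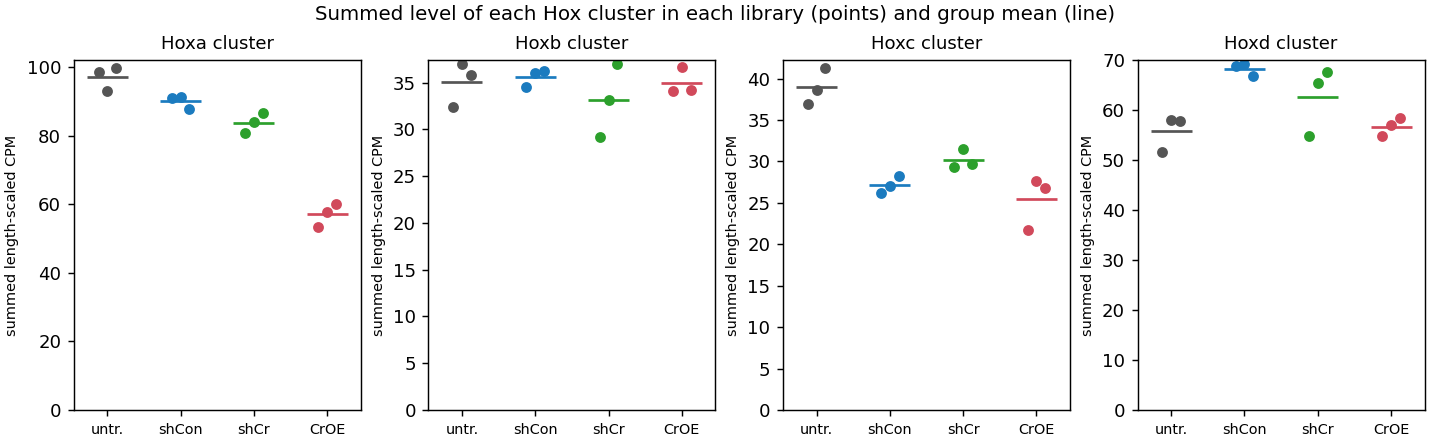
Points give the summed length-scaled CPM of each Hox cluster in each library and lines the group mean, for untreated cells (untr.) and shCon, shCr or CrOE EVs, each axis from 0. The Hoxa sum is lowest in the 3 CrOE libraries (53.4 to 59.9), and the Hoxb sums of the 4 groups overlap.

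As a description of the whole combination, Pearson's r across the 39 genes of log2(CPM + 0.1) was 0.982 to 0.993 between libraries of the same group. It was 0.971 to 0.990 between libraries of untreated, shCon and shCr groups. Pairs of a CrOE library with any other group gave 0.935 to 0.960, where the same measure over 14279 genes tested gave 0.903 to 0.924. Over those genes it was 0.987 to 0.995 within groups and 0.975 to 0.992 between untreated, shCon and shCr groups. The sets are unlike, as 13 of the 39 HOX genes did not pass the filter that all 14279 passed. Whether HOX was better kept than other genes was therefore not tested. These values are across genes, which are not independent replicates, and genes at or near 0 counts in all libraries raise r in every pair.

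HOX proteins bind DNA with TALE homeodomain partners, and all 9 such cofactor genes listed were on in every library. They summed to 436 to 457 CPM in untreated cells, 423 to 424 with shCon EVs, 424 to 437 with shCr EVs and 307 to 316 with CrOE EVs. With CrOE EVs 0 rose and 7 of 9 fell against untreated cells, where 36.7% of all genes rose and 37.0% fell, with a median log2 fold change of -0.52 against 0.01 over all genes. Pknox2 changed by -1.43, Meis1 by -0.60 and Meis2 by -0.55. With shCon EVs and with shCr EVs 2 rose and 3 fell, where 18.0% and 20.2% of all genes rose and fell with shCon EVs and 18.4% and 18.8% with shCr EVs.

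Of 19 genes of the Polycomb complexes PRC2 and PRC1, which keep HOX genes repressed, 12 rose and 2 fell with CrOE EVs, with a median of 0.40, beside 36.7% and 37.0% of all genes. The members with the largest changes were the PRC2 accessory factors Phf19 at -3.12, Jarid2 at -1.03 and Mtf2 at 0.87 and the PRC1 subunit Cbx2 at 1.97. Of 13 Trithorax and H3K27 demethylase genes, which keep HOX genes active, 8 rose and 0 fell, with a median of 0.30, beside the same shares of all genes. Wdr5 rose by 0.91, Rbbp5 by 0.83, Kdm6a by 0.82 and Kansl1 by 0.68. With shCon EVs 5 and 4 of the Polycomb genes and 2 and 2 of the Trithorax genes rose and fell, and with shCr EVs 2 and 4, and 1 and 3, beside 18.0% and 20.2% of all genes with shCon EVs and 18.4% and 18.8% with shCr EVs. Levels of these genes do not measure their marks on HOX chromatin.

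Retinoic acid and CDX proteins switch HOX genes on in the embryo. Of 17 such genes 11 passed the filter, and 2 rose and 7 fell with CrOE EVs, with a median of -0.52, where 36.7% of all genes rose and 37.0% fell. The synthesis enzyme Aldh1a1 changed by -3.09, the receptor Rxra by -1.64 and the degrading enzyme Cyp26b1 by -1.50. The binding protein Crabp1 fell from 5 to 7 counts to 0 or 1, at the floor. Cdx2 and Cdx4 had 0 counts in all libraries and Cdx1 at most 3. With shCon EVs 3 rose and 2 fell (18.0% and 20.2% of all genes), and with shCr EVs 2 and 2 (18.4% and 18.8%).

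Other genes that mark body position were read beside HOX. Of 8 limb genes the forelimb factor Tbx5 was low at 2 to 10 counts in untreated cells. It had 12 to 24 counts with shCon EVs, 3 to 25 with shCr EVs and 31 to 54 with CrOE EVs. Its log2 fold change with CrOE EVs against untreated cells was 2.41. The hindlimb factors Tbx4 and Pitx1 were at the floor in every group. With CrOE EVs 73.7% of all genes were called, 36.7% higher and 37.0% lower, and the counts of each list stand beside these shares. Of the 5 limb genes tested 2 rose and 3 fell, Lhx9 by 0.57 and Shox2 and Lhx2 by -0.51 and -0.47. Of 6 trunk genes tested 1 rose and 4 fell, with Meox2 at -3.05, Pax9 at -2.48, Tbx18 at -1.03 and Tbx15 at -0.92. Of 6 visceral mesenchyme genes 2 rose and 3 fell, with Wt1 at -1.73, Gata4 at 1.13 and Foxf2 at 0.50. Nkx3-2 had 24 to 35 counts in untreated cells, 2 to 12 with shCon EVs, 4 to 14 with shCr EVs and 0 to 2 with CrOE EVs. Of 8 cranial genes 0 rose and 4 fell, with Dlx6 at -1.88, Dlx1 at -1.84, Dlx4 at -1.81 and Pax3 at -0.61. The lists' medians were -0.27 for limb, -0.98 for trunk, -0.27 for visceral and -0.28 for cranial genes, against 0.01 over all genes. With shCon EVs the counts of genes up and down were 2 and 2, 0 and 2, 1 and 3, and 0 and 2, and with shCr EVs 1 and 2, 2 and 3, 3 and 2, and 0 and 2. The shares of all genes up and down were 18.0% and 20.2% with shCon EVs and 18.4% and 18.8% with shCr EVs.

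Genes outside HOX that can tell cell stocks apart were read as well, and Cdkn2a, Cdkn2b, Mtap and Kdm5d were on in every group. Cdkn2a, a tumour suppressor locus that many immortal mouse lines have lost, was at 431 ± 26.4 CPM in untreated cells (SD, n = 3), 442 ± 3.21 with shCon EVs, 500 ± 19.4 with shCr EVs and 234 ± 14.6 with CrOE EVs. Levels of its neighbours differed between groups. Cdkn2b was at 117 to 123 CPM in untreated cells, 146 to 150 with shCon EVs, 169 to 182 with shCr EVs and 83.3 to 98.2 with CrOE EVs. Mtap was at 107 to 115, 77.5 to 80.6, 78.5 to 94.6 and 82.1 to 92.0 CPM, in the same order. Of the 5 genes of this list tested, 0 rose and 3 fell with CrOE EVs, beside 36.7% and 37.0% of all genes. With shCon EVs 1 rose and 1 fell (18.0% and 20.2%), and with shCr EVs 2 and 1 (18.4% and 18.8%). Of the Y-linked genes, Kdm5d was at 1.43 to 2.66 CPM and Uty at 0.254 to 2.02 CPM over the 12 libraries, and Ddx3y and Eif2s3y had at most 9 and 5 counts, both at the floor in untreated cells. Xist and Tsix were not analysed here. Of the HOX-cluster antisense and flanking genes listed, Evx1 and Evx2 had at most 1 count, and the other 12 were not analysed here.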

How the data were processed

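Bulk RNA-seq of 3T3 cells was measured in 12 libraries, 3 in each of 4 groups. The table deposited by the authors holds estimated counts, 1 row per symbol and 1 column per library, 39.8% of them not whole; featureCounts and the build mm39 are named in the submitters' processing notes, without role or version, and no filter or scaling is given in the sources used here. The design had assumed raw counts; values were rounded to whole numbers for the same test. Columns were matched to samples by name, and those with the protein's name alone to CrOE by elimination.

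Genes were kept by filterByExpr and scaled by TMM. All 12 libraries entered 1 edgeR 4.0.16 model (R 4.3.3) with a mean per group and 8 residual degrees of freedom, tested by glmQLFTest in 6 comparisons with Benjamini-Hochberg adjustment over 14279 genes. The dispersion common to all genes was 0.00793 (biological coefficient of variation 8.90%). Standard errors and 95% intervals were derived from the F statistic. Exon lengths, exon overlaps and shared 31-base stretches came from GENCODE M21 (GRCm38), with lengths for all 39 members and 96.6% of rows. Length-scaled CPM was rescaled to the same total in every library over the rows with a length. Floors of 3 counts cover counting error only.

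Per-library values were given for members on in at least 1 group or called with at least a 2-fold change, and the others by ranges; the values of 1 HOX gene and 1 cofactor, which counts and sums include, are not reported here. Of each list, up to 4 called genes with the largest change between CrOE EVs and untreated cells were named. The members, lists and tests were chosen with earlier results of these data known. The Hoxb5 and Hoxb8 values and the overlapping transcripts 5730596B20Rik, Gm28230 and Gm28308 were added after their values were seen. Alternatives were DESeq2 1.42.0, median-of-ratios size factors, a minimum of 10 counts in every library, no filter, a replicate block, a model of only the groups compared, each replicate left out in turn, and other limits for the on state. The test was checked on simulated data. Within a group no 2 libraries agreed within sampling noise. Replicate numbers were not shown to pair the libraries. Figures were drawn with matplotlib 3.10.9.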

Additional observations from a re-analysis of the deposited data

How the results depend on the processing

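The numbers of HOX genes called stayed within 1.5 times the value reported under every alternative run, except for shCr EVs against untreated cells and against shCon EVs. Against untreated cells, 8 HOX genes were called with shCr EVs, 5 in a model of these groups alone, and 5 to 9 with a replicate left out (5 without untreated replicate 1, untreated replicate 3 or shCr replicate 2). Calls over all genes in this comparison moved too, from 5320 to 3737 in a model of these groups alone. They ran from 4254 to 6698 with a replicate left out (4429, 4254 and 4578 without the 3 replicates just named). Between shCr and shCon EVs, the 0 calls became 1 (Hoxa3) without shCr replicate 3, a range of 0 to 1 with a replicate left out. The numbers of genes on stayed within 1.5 times: a limit of 0.5 CPM gave 18, 20, 20 and 20 for untreated cells, shCon, shCr and CrOE EVs, and a limit of 2 CPM gave 13, 14, 14 and 13. Equal numbers do not mean the same genes. At 2 CPM Hoxa2 was on in untreated cells and not with CrOE EVs (1.83 to 2.24 CPM), while Hoxb9 was on only with CrOE EVs (2.56 to 2.70 CPM).

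Of 1129 refits of single HOX genes called under some setting, 1053 kept their direction and side of the threshold, 42 were no longer called, 32 became called and 2 changed sign. Of those that became called, Hoxb3 is given with its values, and the others were in Hoxa3, Hoxa7, Hoxb5, Hoxc10, Hoxc11 and Hoxd9. The sign changes were in genes not called here: Hoxc11 between CrOE and shCon EVs, at 0.026 without shCon replicate 3 (-1.73 to 0.026 with a replicate left out), and Hoxb3 between CrOE and shCr EVs, at 0.024 without shCr replicate 3 (-0.30 to 0.024). The cause was not tested. Over all genes, calls between shCr and shCon EVs numbered 1247, against 639 in a model of these groups alone and 632, 666 and 688 without shCon replicates 2, 3 and 1.

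Deviations from the group means correlated at -0.20 to 0.32 between same-numbered libraries and at -0.36 to 0.35 between the others. With 3 libraries a group, this check cannot show whether same-numbered libraries shared a culture or batch. With a replicate block the HOX calls were 7 with shCon, 9 with shCr and 13 with CrOE EVs against untreated cells, 0 between shCr and shCon EVs, and 11 and 13 for CrOE against shCon and shCr EVs. Of all 14279 genes tested, 5691, 5529, 10657, 1281, 10511 and 10677 were called with this block, in the same order. Depth limits the members with few counts, such as Hoxc11, Hoxd10 and Hoxb9 outside the CrOE group.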
